A study of Mus musculus with 18 samples.

Results

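The genes described here are 10 genes of MHC class I antigen processing, chosen by name and by their role, with earlier results of these data known: the heavy chains H2-K1 and H2-D1 and their partner B2m, the peptide loading genes Tap1, Tap2 and Tapbp, the immunoproteasome subunits Psmb8, Psmb9 and Psmb10, and the transactivator Nlrc5. They are 10 of the 41079 genes in the deposited table, and all 10 were among the 12357 tested, those averaging 1 FPKM or more over the tumors (FPKM is the number of fragments per kilobase of gene and per 1000000 fragments). The table holds 18 tumors, 3 in each of 6 groups. B16F10 melanoma cells were grown under the skin of female C57BL/6 mice, and intratumoral injections began on day 6, when tumors measured about 50 mm3, and were repeated every 2 days until 48 h before collection.

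The control group, PBS, received buffer. Free PS473 tumors received the naked PS473, a Pistol ribozyme (a small RNA that cleaves RNA) directed at the mRNA of PD-L1, gene Cd274. In PS473@CPs the same ribozyme was carried by cationic polymers. NKMOF-101-[Mn] tumors received an empty manganese-based metal-organic framework. In M5@NKMOF-101-[Mn] this framework carried M5, a catalytically inactive form with the same recognition arms. In the last group, PS473@NKMOF-101-[Mn], it carried the active ribozyme, so that 9 tumors received the framework and 9 did not. The tumor is 1 transplanted line in 1 mouse strain, and each library holds tumor cells together with whatever host cells the piece contained. For the 3 tumors of the last group the sample titles name another framework number than the treatment text, and the name in the treatment text is used here. The cells were placed in 1 flank of each mouse and the mice were divided among the groups, while the records used here do not tie a library to an animal, and the p-values below measure the spread between these tumors. The columns taken as Free PS473 are headed with PBS and PS473 together in the table, and were matched to the sole titles that give PS473 without a carrier. Each comparison with Free PS473 rests on that match.

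Class I molecules display short peptides from inside a cell to CD8 T cells. The proteasome cuts the proteins, the TAP transporter moves the peptides into the endoplasmic reticulum, tapasin helps to load them onto a heavy chain paired with beta-2-microglobulin, and aminopeptidases trim them to length. Interferon gamma raises the whole set, in part through IRF1 and NLRC5, and exchanges 3 catalytic subunits of the proteasome for the immunosubunits. B16F10 is known as a melanoma line with low surface class I that interferon gamma can raise.

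The promoters of H2-K1, B2m and H2-D1 are shown first because these genes encode the complex that reaches the cell surface. The sequences are RefSeq's, on build GRCm38.p6, read along the gene's strand. Capitals mark matches, on either strand, to an interferon-factor core (AANNGAAA), a kB palindrome (GGGATTCCC), a cAMP-response core (TGACG) or a CCAAT box (CCAAT, which reads ATTGG on the other strand). The H2-K1 and B2m stretches are the 150 bases before the annotated start, and the H2-D1 stretch is 30 bases that begin at its kB palindrome.
H2-K1, chr17:34000348-34000497, minus strand: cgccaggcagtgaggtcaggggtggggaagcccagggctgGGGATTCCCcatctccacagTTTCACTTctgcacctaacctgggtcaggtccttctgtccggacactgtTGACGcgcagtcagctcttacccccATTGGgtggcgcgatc
B2m, chr2:122147537-122147686, plus strand: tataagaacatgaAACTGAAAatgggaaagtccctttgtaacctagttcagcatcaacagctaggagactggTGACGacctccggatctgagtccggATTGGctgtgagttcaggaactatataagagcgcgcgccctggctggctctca
H2-D1, chr17:35262924-35262953, plus strand: GGGATTCCCcatctcctcagTTTCACTTct
Over these 30 bases H2-K1 and H2-D1 shared 29 bases. Over 190 aligned bases of the same promoters they shared 166 (87.4%).

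Promoter windows of 300 bases, 250 before and 50 after the start, were at hand for 8 of the 10 genes, with none for Tap2 and Nlrc5. The interferon-factor core was found in 3 of the 8 windows (H2-K1, H2-D1 and B2m), against 23.9% of the 32851 windows of that length. The cAMP-response core was found in 5 (H2-K1, H2-D1, B2m, Tap1 and Psmb9), against 20.8% of windows, and the CCAAT box in 6 (those 5 and Tapbp), against 37.4%. The kB palindrome was found in H2-K1 and H2-D1 and in 0.353% of windows. A gamma-activated site (TTCNNNGAA) was found in the window of Psmb8 and in 8.3% of windows. These are matches of letters and do not show that a factor binds. Tap1 and Psmb9 are read in opposite directions from start sites 226 bases apart, their windows share 275 bases, and their matches to the cAMP-response core and the CCAAT box are therefore the same sites.

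All 10 genes had their lowest group mean in Free PS473, and 9 of them had their highest value of the 18 tumors in PS473@NKMOF-101-[Mn] 2. Free PS473 1 was among the lowest 2 of the 18 tumors for 10 of the 10 genes and Free PS473 2 for 9. Free PS473 3 ranked from rank 3 of 18 from the lowest, for B2m, to rank 10, for Psmb8. Differences between groups did not pass the test across all genes. In the moderated F test of limma over the 6 groups, 0 of the 10 genes and 0 of all 12357 (0%) were called, with Benjamini-Hochberg adjustment and a threshold of 0.05. At an unadjusted p under 0.05 the same test marked 7 of the 10, with 1.99% of all genes, and it marked between 1 and 10 of the 10 when single tumors were left out, 1 without Free PS473 1, 1 without Free PS473 2, 3 without M5@NKMOF-101-[Mn] 3, and 4 each without PBS 3, without PS473@CPs 2, without NKMOF-101-[Mn] 3 and without M5@NKMOF-101-[Mn] 1. No share of all genes is given here for the fits that left out a tumor. In a bulk tumor, fewer cells that express a gene and less RNA of it per cell cannot be told apart.

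**Figure D1:**
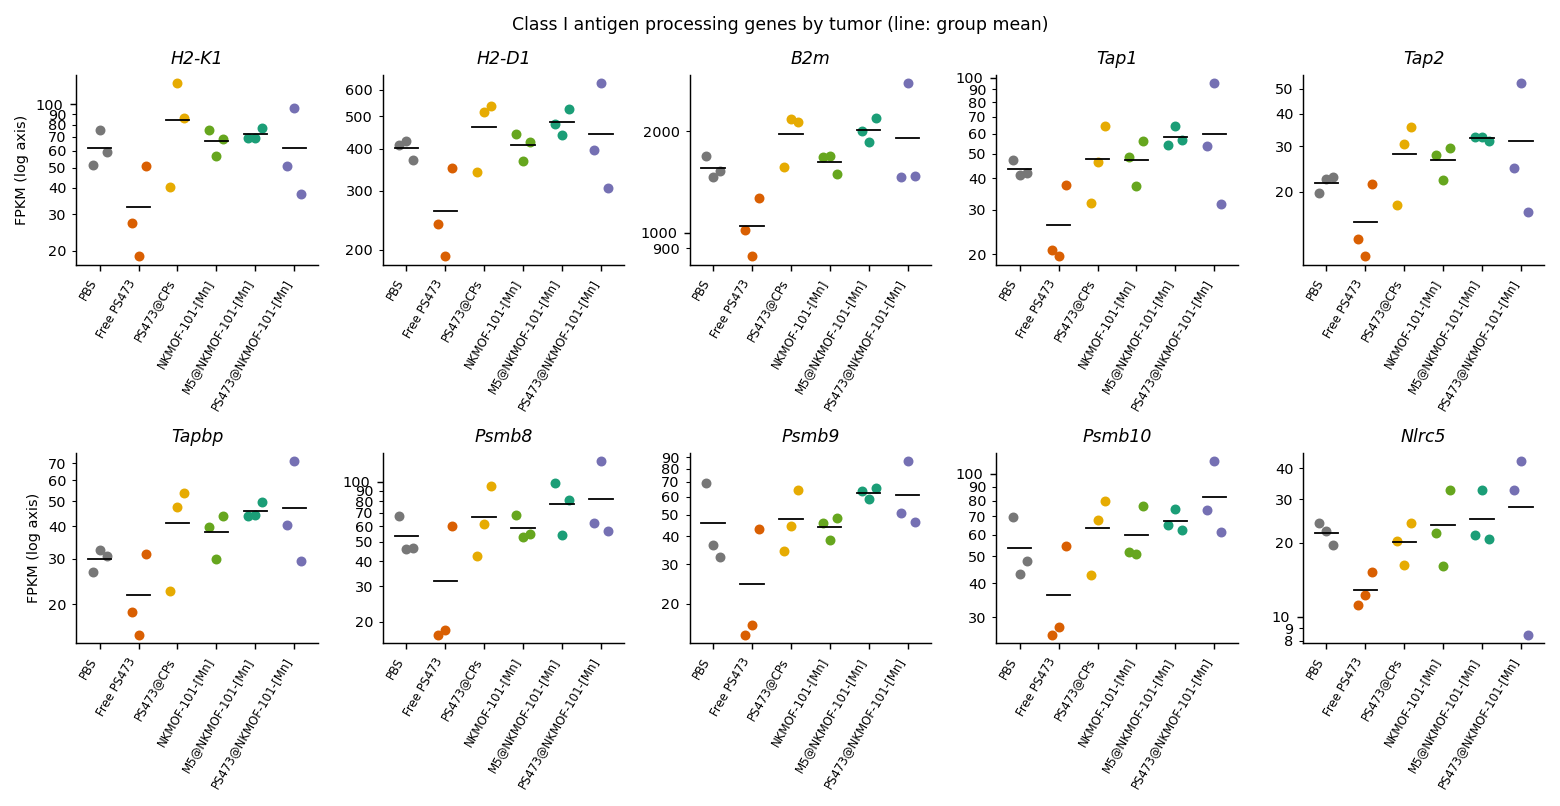
FPKM of the 10 genes (log axis) in each of the 18 tumors, with 1 panel per gene, 1 point per tumor in replicate order and a line at the arithmetic mean of the 3 tumors of a group. Free PS473 has the lowest mean in every panel, and the 3 PS473@NKMOF-101-[Mn] tumors are spread wider than the 3 M5@NKMOF-101-[Mn] tumors.

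The heavy chains and B2m form the complex that reaches the cell surface. B2m, the light chain shared by all class I molecules, was the most abundant of the 10 genes. In replicate order, here and below, its FPKM was 1687, 1465 and 1529 in PBS and 1019, 850 and 1270 in Free PS473. It was 1572, 2182 and 2127 in PS473@CPs, 1673, 1685 and 1495 in NKMOF-101-[Mn], 1999, 1861 and 2184 in M5@NKMOF-101-[Mn], and 1462, 2779 and 1475 in PS473@NKMOF-101-[Mn]. The 3 Free PS473 tumors were therefore below every other tumor in the series. Of the 10 genes B2m also had the largest share of its variation between groups, 66.3% of the sum of squares of log2(FPKM + 1), and Nlrc5 the smallest, 29.2%. With 3 tumors per group, part of the sum of squares falls between groups even where they do not differ. These shares therefore rank the genes and do not by themselves show a group difference.

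H2-D1, a classical heavy chain, was measured at 411, 421 and 371 FPKM in PBS and at 239, 191 and 351 FPKM in Free PS473. Its highest value was 627 FPKM in PS473@NKMOF-101-[Mn] 2, while the other tumors of that group had 397 and 305 FPKM. Free PS473 lay below PBS, NKMOF-101-[Mn] (442, 368 and 420 FPKM) and M5@NKMOF-101-[Mn] (475, 441 and 527 FPKM) with no overlap. It overlapped with PS473@CPs (341, 516 and 537 FPKM), as Free PS473 3 was above PS473@CPs 1.

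H2-K1, the other classical heavy chain of this strain, was the less abundant of the pair, at 51.6, 75.3 and 59.4 FPKM in PBS and 27.3, 18.9 and 50.7 FPKM in Free PS473. In PS473@CPs it was 40.5, 126 and 86.5 FPKM, and its highest value of all tumors was in PS473@CPs 2. The framework groups had 76, 56.5 and 68.6 FPKM (NKMOF-101-[Mn]), 69.3, 69.4 and 77.4 FPKM (M5@NKMOF-101-[Mn]) and 50.9, 96.7 and 37.5 FPKM (PS473@NKMOF-101-[Mn]). Classical heavy chains are alike in parts of their sequence, how shared fragments were divided among them is not given in the sources used here, and their values are uncertain for that reason.

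The peptide loading genes were expressed at lower levels than H2-D1 and B2m, and they too had their lowest group mean in Free PS473. Tap1, a subunit of the peptide transporter, was at 47, 41.1 and 41.8 FPKM in PBS and at 20.8, 19.6 and 37.7 FPKM in Free PS473, which did not overlap. It reached 32, 46.2 and 64.5 FPKM in PS473@CPs, 48.6, 37.2 and 56 FPKM in NKMOF-101-[Mn], and 54, 64.3 and 56.9 FPKM in M5@NKMOF-101-[Mn]. In PS473@NKMOF-101-[Mn] the values were 53.6, 95.2 and 31.5 FPKM, so that replicate 3 lay below every PBS tumor and replicate 2 above every other tumor.

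Tap2, the other transporter subunit, ranged from 11.3 FPKM in Free PS473 2 to 52.5 FPKM in PS473@NKMOF-101-[Mn] 2. In M5@NKMOF-101-[Mn] it was 32.5, 32.6 and 31.4 FPKM, above PBS (19.7, 22.4 and 22.8 FPKM) without overlap, and in Free PS473 it was 13.1, 11.3 and 21.4 FPKM. Tapbp, which encodes tapasin, ranged from 15.3 FPKM in Free PS473 2 to 71 FPKM in PS473@NKMOF-101-[Mn] 2. Its 3 M5@NKMOF-101-[Mn] tumors (43.8, 44.1 and 49.5 FPKM) were also above all 3 PBS tumors (26.8, 32.5 and 30.8 FPKM).

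The immunosubunits Psmb8 and Psmb9 varied 7.33-fold and 5.91-fold between the lowest and the highest tumor, a range that H2-K1 (6.70-fold) shared and B2m (3.27-fold) did not. Psmb8, which replaces Psmb5 at the chymotrypsin-like site, was 17.2, 18.1 and 60.2 FPKM in Free PS473 and 67.3, 46.3 and 46.7 FPKM in PBS, and the highest value was 126 FPKM in PS473@NKMOF-101-[Mn] 2. Psmb9, which replaces Psmb6, was 14.6, 16.2 and 43.2 FPKM in Free PS473 and 69, 36.5 and 32.5 FPKM in PBS, so PBS 1 stood above the other PBS tumors. In these genes Free PS473 3 was in the range of PBS while Free PS473 1 and 2 were not.

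In M5@NKMOF-101-[Mn] Psmb9 was 63.4, 58.9 and 65.5 FPKM and in PS473@NKMOF-101-[Mn] it was 51, 86.2 and 46.3 FPKM. Psmb10, which replaces Psmb7 at the trypsin-like site, was 25.9, 27.6 and 54.8 FPKM in Free PS473, and 73.7, 111 and 61.5 FPKM in PS473@NKMOF-101-[Mn], with no overlap. PBS held 69.8, 43.3 and 48.3 FPKM of Psmb10 and overlapped with both groups.

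Nlrc5, the transactivator of class I genes, was the least like the rest. It was 24, 22.2 and 19.6 FPKM in PBS and 11.2, 12.3 and 15.2 FPKM in Free PS473, with no overlap. In PS473@NKMOF-101-[Mn] it was 32.8, 42.6 and 8.48 FPKM, and replicates 2 and 3 of that group were the highest and the lowest of all 18 tumors. The other groups lay between 16.1 FPKM (NKMOF-101-[Mn] 2) and 32.6 FPKM (NKMOF-101-[Mn] 3).

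In the order of group means, neighbouring groups overlapped for nearly every gene. Of the 5 neighbouring pairs, all 5 overlapped for H2-K1, Tap2, Tapbp, Psmb8, Psmb9 and Psmb10. For H2-D1, B2m, Tap1 and Nlrc5, 4 of 5 overlapped, and the exception was the step from Free PS473 to the next group, which was PS473@CPs for Nlrc5 and PBS for the other 3 genes. In arithmetic means of FPKM, which PS473@NKMOF-101-[Mn] 2 raises, PS473@NKMOF-101-[Mn] had the highest mean for Tap1, Tapbp, Psmb8, Psmb10 and Nlrc5, M5@NKMOF-101-[Mn] for H2-D1, B2m, Tap2 and Psmb9, and PS473@CPs for H2-K1. In means of log2(FPKM + 1) the M5 group was above PS473@NKMOF-101-[Mn] for 8 of the 10 genes, Tap1, Tapbp and Nlrc5 among them. The spread within groups differed widely in size. The mean log2(FPKM + 1) over the 10 genes was 6.56 ± 0.021 (SD, n = 3) in M5@NKMOF-101-[Mn], 6.16 ± 0.115 in PBS, 5.43 ± 0.539 in Free PS473 and 6.47 ± 0.644 in PS473@NKMOF-101-[Mn], each over 3 tumors.

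The values of the targeted gene itself are given beside those of the class I genes. Cd274, which encodes PD-L1, was at 21.5, 15.7 and 12.3 FPKM in PBS, 12.3, 11.7 and 14 FPKM in Free PS473, and 17, 32.9 and 9.74 FPKM in PS473@NKMOF-101-[Mn]. Its log2 fold change between PS473@NKMOF-101-[Mn] and PBS was 0.13 ± 0.34 (SE; adjusted p = 0.993, limma with Benjamini-Hochberg adjustment), so a lower level of this mRNA was not detected there. The paper reports less PD-L1 in tumors of PS473@NKMOF-101-[Mn] by PCR, blotting and staining, which are other assays than the sequencing used here. In PS473@CPs Cd274 was at 11.9, 12.6 and 24.5 FPKM, and in NKMOF-101-[Mn] it was at 14.1, 14.6 and 15.9 FPKM. In M5@NKMOF-101-[Mn], the group with the highest mean, Cd274 was at 21.8, 21 and 28.2 FPKM. Against that inactive control the log2 fold change of PS473@NKMOF-101-[Mn] was -0.39 ± 0.34 (unadjusted p = 0.269 in limma). Against the empty framework it was 0.24 ± 0.34 (unadjusted p = 0.488 in limma). Across the 18 tumors Cd274 followed the mean of the 10 class I genes with r = 0.76 (rank 190 among the genes tested), and PS473@NKMOF-101-[Mn] 2 was the highest tumor for it as well.

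The comparison of Free PS473 with PBS asks what the naked ribozyme did to the class I genes. All 10 were lower in Free PS473, with a median log2 fold change of -0.70 on the log2(FPKM + 1) scale, where the median of all genes was 0.03. In the same comparison 11 of 12 leukocyte markers (median -0.51), 13 of 13 skin epithelium markers (median -2.81) and 8 of 10 melanocyte markers (median -0.12) were lower, 0 of them with an unadjusted p under 0.05, and their part in the class I difference was not tested. The difference was -1.02 ± 0.41 (SE) for H2-K1, -0.66 ± 0.25 for H2-D1, -0.59 ± 0.22 for B2m, -0.77 ± 0.34 for Tap1, -0.95 ± 0.43 for Psmb8 and -0.96 ± 0.37 for Psmb9. These 6 genes had an unadjusted p under 0.05 in limma, with 1.81% of all genes. None of the 10, and none of 12357 genes, had an adjusted p under 0.05 (adjusted p = 1 for each of the 10, limma with Benjamini-Hochberg adjustment). Every PBS tumor was above every Free PS473 tumor for 5 of the 10 genes (H2-K1, H2-D1, B2m, Tap1 and Nlrc5), which 1.54% of all genes showed.

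The count of 6 rested on single tumors. It was 1 without Free PS473 1, 0 without Free PS473 2, 2 without PBS 1 and 9 without Free PS473 3. With the level of skin epithelium genes as a covariate it was 1. For these refits the share of all genes is not given here, so their counts cannot be set against it.

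PS473@NKMOF-101-[Mn] against Free PS473 compares the same ribozyme with and without the carrier. All 10 genes were higher with the framework, with a median log2 fold change of 0.98 against -0.04 over all genes, from 0.74 ± 0.25 for H2-D1 to 1.48 ± 0.43 for Psmb8. The largest differences were in the immunosubunits, at 1.39 ± 0.37 for Psmb9 and 1.20 ± 0.31 for Psmb10, followed by Tap1 (1.10 ± 0.34) and Tapbp (1.04 ± 0.33). H2-K1 differed by 0.92 ± 0.41, Tap2 by 0.88 ± 0.33, B2m by 0.81 ± 0.22 and Nlrc5 by 0.80 ± 0.42. At an unadjusted p under 0.05 limma marked 9 of the 10, all but Nlrc5, with 4.98% of all genes. No adjusted p was under 0.05, and the lowest among the 10 was 0.781 (limma, Benjamini-Hochberg), shared by B2m, Tap1, Psmb8, Psmb9 and Psmb10.

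Non-overlap was less common than these counts. Every PS473@NKMOF-101-[Mn] tumor was above every Free PS473 tumor for 3 of the 10 genes (B2m, Psmb9 and Psmb10), which 2.34% of all genes showed. The count of 9 became 5 when PS473@NKMOF-101-[Mn] 2 was left out, and the median became 0.62. For that refit the share of all genes is not given here.

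PS473@CPs against Free PS473 compares the ribozyme in a polymer carrier with the naked ribozyme, and it shares the Free PS473 tumors with the previous comparison. All 10 genes were higher in PS473@CPs, with a median log2 fold change of 0.86. H2-K1 had the largest difference (1.33 ± 0.41), followed by Psmb8 (1.21 ± 0.43), Psmb9 (1.05 ± 0.37) and B2m (0.91 ± 0.22), and Nlrc5 the smallest (0.60 ± 0.42). The unadjusted p was under 0.05 for 9 genes, again all but Nlrc5, with 4.17% of all genes, and 0 genes had an adjusted p under 0.05 (adjusted p = 1 for each of the 10, limma with Benjamini-Hochberg adjustment). The count of 9 became 3 without Free PS473 1, without Free PS473 2 or without PS473@CPs 3, and the share of all genes in these refits is not given here. B2m and Nlrc5 did not overlap between the groups, as 1.8% of all genes did.

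The other framework groups were also set against Free PS473, as values and without a test. The 3 tumors with M5 on the framework all lay above the 3 Free PS473 tumors for 9 of the 10 genes, all but Psmb8, against 5.36% of all genes. Those with the empty framework did so for 5 (H2-K1, H2-D1, B2m, Tap2 and Nlrc5), against 3.99%.

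**Figure D2:**
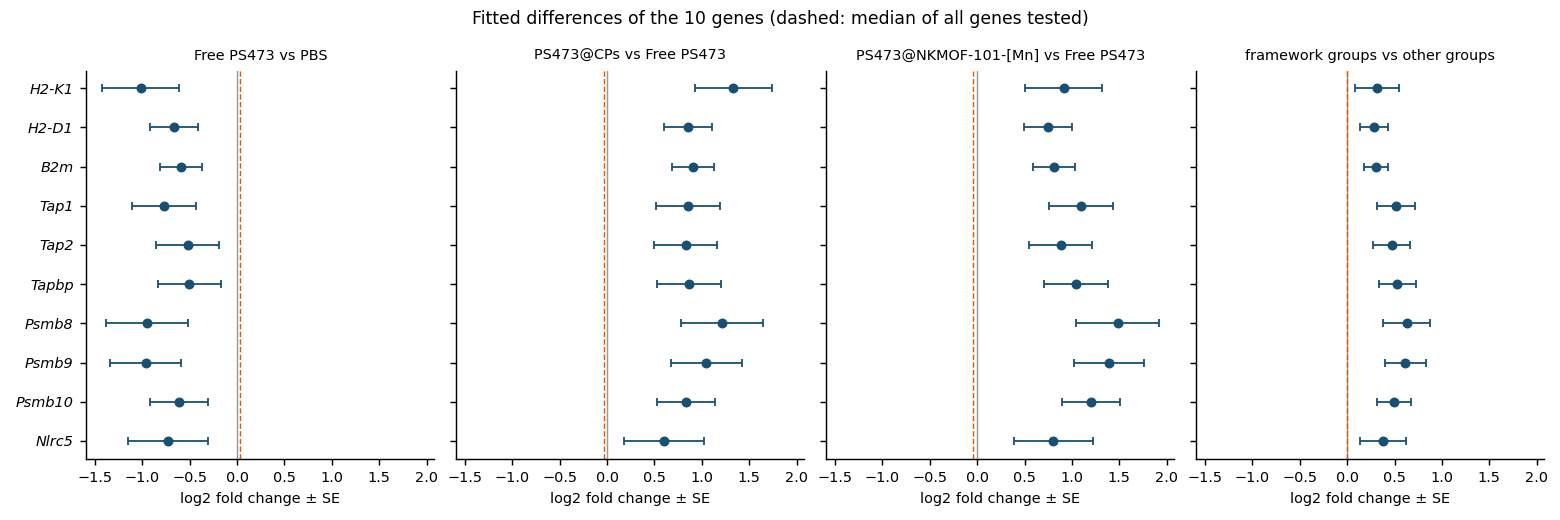
Fitted log2 fold change ± SE of the 10 genes in 4 comparisons, on the log2(FPKM + 1) scale, with a dashed line at the median of all 12357 genes tested. The points lie below 0 for Free PS473 against PBS and above 0 in the other 3 panels, which all use the Free PS473 tumors.

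The remaining groups were each compared with PBS. At an unadjusted p under 0.05, limma marked 0 of the 10 genes in PS473@CPs (2.09% of all genes), 0 in NKMOF-101-[Mn] (1.46%), 0 in M5@NKMOF-101-[Mn] (1.51%) and 0 in PS473@NKMOF-101-[Mn] (2.1%), and no gene of all those tested had an adjusted p under 0.05 in any of them. The median log2 fold change of the 10 genes against PBS was 0.24 in PS473@CPs, 0.11 in NKMOF-101-[Mn], 0.39 in M5@NKMOF-101-[Mn] and 0.34 in PS473@NKMOF-101-[Mn]. All 4 share the PBS tumors. Leaving out 1 tumor moved the value of 0.24 between 0.0517 (without PS473@CPs 3) and 0.47 (without PS473@CPs 1), and the value of 0.11 between 0.049 (without NKMOF-101-[Mn] 1) and 0.24 (without NKMOF-101-[Mn] 2). The value of 0.34 became -0.08 without PS473@NKMOF-101-[Mn] 2, and 0.71 without PS473@NKMOF-101-[Mn] 3, when 5 of the 10 genes had an unadjusted p under 0.05. A single gene of the 10 had one in PS473@CPs without PS473@CPs 1, in M5@NKMOF-101-[Mn] without PBS 1, and in PS473@NKMOF-101-[Mn] without PBS 1. With the skin covariate described above, 3 genes had one in M5@NKMOF-101-[Mn] and 1 in PS473@NKMOF-101-[Mn]. The share of all genes in these refits is not given here, so their counts cannot be set against it.

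In M5@NKMOF-101-[Mn], all 10 genes had a higher mean than in PBS, from Nlrc5 (0.15 ± 0.42) and H2-K1 (0.23 ± 0.41) to Tapbp (0.59 ± 0.33), Tap2 (0.56 ± 0.33), Psmb8 (0.51 ± 0.43) and Psmb9 (0.51 ± 0.37). Melanocyte markers were higher in 9 of 10 (median 0.24, 1 with an unadjusted p under 0.05) and leukocyte markers in 8 of 12 (median 0.35), while skin epithelium markers were lower in 13 of 13 (median -2.61) and endothelial and fibroblast markers in 9 of 9 (median -0.78), and their part was not tested. The remaining class I differences were 0.26 ± 0.25 for H2-D1, 0.37 ± 0.22 for B2m, 0.42 ± 0.34 for Tap1 and 0.35 ± 0.31 for Psmb10. The Nlrc5 difference became -0.05 without M5@NKMOF-101-[Mn] 2. For 5 genes (H2-D1, B2m, Tap1, Tap2 and Tapbp) the M5 tumors did not overlap with PBS and were all higher, against 4.75% of all genes, while the PS473@NKMOF-101-[Mn] tumors were so for 0 genes, against 2.74%.

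The active and the inactive RNA on the framework, PS473@NKMOF-101-[Mn] against the M5 group, differ in whether the carried RNA can cleave. The median log2 fold change between them was -0.09 over the 10 genes, 0 of 10 had an unadjusted p under 0.05, and 0.591% of all genes did. For B2m the 95% confidence interval of the difference in log2(FPKM + 1) ran from -0.62 to 0.32 and for Psmb8 from -0.91 to 0.94, so these bounds are the sizes of difference that the data allow in either direction. Without PS473@NKMOF-101-[Mn] 2 the median was -0.46 and 2 of 10 had an unadjusted p under 0.05, and without PS473@NKMOF-101-[Mn] 3 it was 0.19 and 1 did. The share of all genes in those fits is not given here. Of the 12 leukocyte markers tested, 12 had a lower mean in PS473@NKMOF-101-[Mn] than with M5, 0 of them with an unadjusted p under 0.05, and their part in the result was not tested. Against the empty framework the median was 0.19, with 0 of 10 at an unadjusted p under 0.05 and 2.3% of all genes, and against PS473@CPs it was 0.19, with 0 of 10 and 2.29%. Without PS473@NKMOF-101-[Mn] 2 these medians were -0.16 and -0.19, and the second was -0.10 without PS473@CPs 1. M5@NKMOF-101-[Mn] against the empty framework gave 0.28, with 0 of 10 and 3.07%, and 0.16 without NKMOF-101-[Mn] 2. In limma, 0 genes of all those tested had an adjusted p under 0.05 in these 4 comparisons.

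The 3 groups with the framework were then compared with the 3 groups without it. All 10 genes had a higher mean with the framework, with a median log2 fold change of 0.48 against -0.01 over all genes. The differences were largest for Psmb8 (0.63 ± 0.25, SE, n = 9 per arm in limma), Psmb9 (0.61 ± 0.21), Tapbp (0.53 ± 0.19), Tap1 (0.52 ± 0.20) and Psmb10 (0.50 ± 0.18). Tap2 differed by 0.47 ± 0.19, Nlrc5 by 0.38 ± 0.24, H2-K1 by 0.32 ± 0.23, B2m by 0.31 ± 0.13 and H2-D1 by 0.28 ± 0.15. An unadjusted p under 0.05 was reached by 7 of the 10, all but H2-K1, H2-D1 and Nlrc5, with 4.56% of all genes, and none had an adjusted p under 0.05 (adjusted p = 0.9 for each of the 10, limma with Benjamini-Hochberg adjustment). The count of 7 became 4 without Free PS473 2 or without PS473@CPs 1, and the share of all genes in these refits is not given here.

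The last comparison asked whether the ribozyme differed in effect with and without the framework, as PS473@NKMOF-101-[Mn] minus NKMOF-101-[Mn] set against Free PS473 minus PBS. It was chosen after the values were seen. All 10 genes had a positive difference, with a median of 0.78 on the log2 scale (0.44 without PS473@NKMOF-101-[Mn] 2 and 1.16 without PS473@NKMOF-101-[Mn] 3), and B2m, Psmb8, Psmb9 and Psmb10 had an unadjusted p under 0.05, with 2.68% of all genes. In limma 0 genes had an adjusted p under 0.05. The count of 4 was 0 without PBS 1, without Free PS473 2 or without PS473@NKMOF-101-[Mn] 2, 1 without Free PS473 1, 2 without NKMOF-101-[Mn] 2, 7 without Free PS473 3 and 9 without PS473@NKMOF-101-[Mn] 3. How many of all genes passed in these refits is not given here, so the counts cannot be set against it.

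Each immunosubunit was also compared with the constitutive subunit it replaces in the same tumor, a ratio that is free of the scaling of the library. Psmb8/Psmb5 was 0.419, 0.48 and 0.408 in PBS and 0.152, 0.161 and 0.351 in Free PS473. In PS473@NKMOF-101-[Mn] it was 0.584, 1.23 and 0.371, and only replicate 2 of that group had more Psmb8 than Psmb5. In M5@NKMOF-101-[Mn] it was 0.818, 0.495 and 0.68, above all PBS tumors.

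Psmb9/Psmb6 was highest in PS473@NKMOF-101-[Mn] 2 (1.34) and lowest in Free PS473 1 (0.215), and in M5@NKMOF-101-[Mn] it was 0.914, 0.898 and 1, above every tumor without the framework except PS473@CPs 3 (0.986). Psmb10/Psmb7 ran from 0.169 in Free PS473 1 to 0.73 in PS473@NKMOF-101-[Mn] 2, so the constitutive subunit was the more abundant in every tumor for this pair. Free PS473 was the lowest group for all 3 ratios. Free PS473 3 had ratios of 0.351, 0.424 and 0.253, above Free PS473 1 and 2 and below every PBS tumor. Its FPKM of Psmb8 was in the range of PBS, and its Psmb5, at 172 FPKM, was the highest of the 18 tumors.

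**Figure D3:**
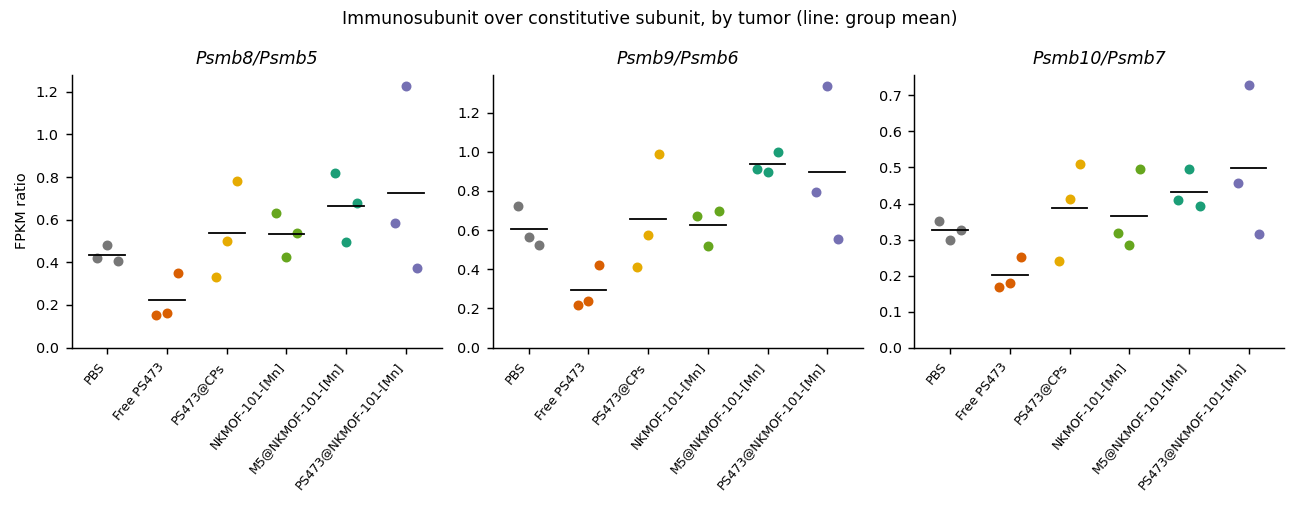
FPKM ratio of each immunosubunit to the constitutive subunit it replaces, in each tumor (points) with the group mean (line). Axes start at 0, Free PS473 has the lowest mean in each panel, and PS473@NKMOF-101-[Mn] 2 is the highest point in each.

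On the log2 scale the mean ratio was higher in the 9 framework tumors by 0.76 for Psmb8/Psmb5, by 0.75 for Psmb9/Psmb6 and by 0.53 for Psmb10/Psmb7. The groups within each arm differed. In the same order, the mean FPKM ratios with the empty framework were 0.531, 0.628 and 0.366. That was above PBS (0.436, 0.603 and 0.326) and below PS473@CPs (0.537, 0.658 and 0.388), which had no framework. Free PS473 had 0.221, 0.292 and 0.2, and M5@NKMOF-101-[Mn] had 0.664, 0.938 and 0.432. PS473@NKMOF-101-[Mn] had 0.727, 0.896 and 0.5. The two-sided exact permutation test over all 48620 splits of the 18 tumors into 9 and 9 gave p = 0.0219, 0.0139 and 0.0311, and p = 0.0311 for each after Benjamini-Hochberg adjustment over the 3 ratios. This test moves single tumors freely between the arms and takes no account of the 6 groups of 3 that were treated alike. It therefore cannot separate the framework from other differences between the groups. In Psmb9/Psmb6 the mean log2 ratio was -0.34 ± 0.432 (SD, n = 9) with the framework and -1.10 ± 0.708 (SD, n = 9) without. These differences depended on few tumors. With Free PS473 1 left out the permutation p rose to 0.0615 after adjustment, with Free PS473 2 left out to 0.0608, with PS473@NKMOF-101-[Mn] 2 left out to 0.0629 and with PS473@CPs 1 left out to 0.0515 for Psmb8/Psmb5 and Psmb9/Psmb6 and 0.0524 for Psmb10/Psmb7. For Psmb10/Psmb7 the permutation p after adjustment was also 0.052 without NKMOF-101-[Mn] 3 or without M5@NKMOF-101-[Mn] 2. Without Free PS473 1 and 2 and PS473@NKMOF-101-[Mn] 2 together, which were picked because they are the extremes of these genes, it was 0.226 for each ratio.

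The constitutive subunits of the 20S core were examined next. Of the 14 constitutive subunits of the 20S core, 0 had an unadjusted p under 0.05 between PS473@NKMOF-101-[Mn] and Free PS473, and their log2 fold changes ran from -0.15 to 0.13 with a median of -0.05. Across the 18 tumors the correlation of each with the mean of the 10 class I genes lay between -0.19 and 0.38. PBS 1 and Free PS473 3 stood apart for the 20S core, with sums over its 14 genes of 2304 and 2380 FPKM against 1469 to 1990 FPKM in the other 16 tumors. Within their groups these tumors were also the highest for the immunosubunits: the mean log2(FPKM + 1) of Psmb8, Psmb9 and Psmb10 was 6.12 in PBS 1 against 5.42 in each of the other PBS tumors, and 5.73 in Free PS473 3 against 4.30 and 4.40. The part of the 20S level in the immunosubunit values was not tested beyond the ratios above. Among the activator and assembly genes, Psme1 and Psme2, which form the interferon-inducible PA28 cap, went with the class I genes (r = 0.88 and 0.83), and Psme3, Psme4 and the assembly factor Pomp did not (r = -0.49, -0.23 and -0.06). Psme1 ran from 73.6 FPKM in Free PS473 2 to 202 FPKM in PS473@NKMOF-101-[Mn] 2, and it differed between those groups by 0.83 ± 0.23.

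Other class I heavy chains and loading factors divided in the same way. Of the 15 other heavy chains, 7 were tested, and 3 of these 7 (H2-T10, H2-T22 and H2-T23) had an unadjusted p under 0.05 between PS473@NKMOF-101-[Mn] and Free PS473, with log2 fold changes of 0.86 ± 0.27, 0.87 ± 0.31 and 1.34 ± 0.60. H2-Q4 (r = 0.89) and H2-M3 (r = 0.86) went with the class I genes across tumors, and H2-T24 and Mr1 less so (r = 0.34 and 0.33). Of 6 further loading and trimming genes, Erap1, the aminopeptidase that trims peptides, and Tapbpl, a tapasin-related protein, differed between these groups by 0.84 ± 0.27 and 0.76 ± 0.34, each with an unadjusted p under 0.05. The general chaperones Calr, Canx and Pdia3 differed by 0.06 ± 0.11, -0.05 ± 0.09 and 0.03 ± 0.14. No gene of these lists had an adjusted p under 0.05.

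Among the transcription factors known at class I promoters, Irf1, an interferon-regulated factor, went closely with the 10 genes (r = 0.97). It was 18.6, 15.8 and 14.8 FPKM in PBS, 7.78, 7.96 and 18.1 FPKM in Free PS473, 19.2, 28 and 22.6 FPKM in M5@NKMOF-101-[Mn] and 20.6, 40.9 and 12.7 FPKM in PS473@NKMOF-101-[Mn]. Free PS473 1 and 2 were again the lowest tumors and PS473@NKMOF-101-[Mn] 2 the highest. The log2 fold change of Irf1 between PS473@NKMOF-101-[Mn] and Free PS473 was 1.01 ± 0.37. The subunits of RFX, CREB and NF-Y factors, which are known to bind class I promoters, varied less, for example: Rfxap ran from 10.6 to 13.6 FPKM, Creb1 from 3.13 to 4.22 FPKM, Atf1 from 19.3 to 27.2 FPKM and Nfyb from 4.91 to 6.76 FPKM over all tumors. Nlrc5 ran from 8.48 to 42.6 FPKM.

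Of the 10 interferons, receptors and signalling genes, 8 were tested and 0 of these 8 had an unadjusted p under 0.05 between PS473@NKMOF-101-[Mn] and Free PS473. Ifng ran from 0.0809 to 1.38 FPKM and was highest in PS473@NKMOF-101-[Mn] 2, and Ifnb1 was listed at 0 in 11 tumors and reached 0.21 FPKM. Socs1, an inhibitor that interferon induces, was the member of this list with the highest correlation with the class I genes (r = 0.85).

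Nlrc5 was correlated with each of the other 9 genes across the 18 tumors. Pearson's r was highest for Tap1 (r = 0.84, Spearman's rho = 0.82), with a permutation p of 2e-05 and 6e-05, which became 0.00018 and 0.00054 after Benjamini-Hochberg adjustment over the 9 relations of each kind. It was lowest for B2m (r = 0.57, permutation p = 0.0135, 0.0135 adjusted), for which rho was 0.42 (permutation p = 0.0818, 0.0818 adjusted). The other r were 0.58 for H2-K1, 0.69 for H2-D1, 0.75 for Tap2, 0.67 for Tapbp, 0.58 for Psmb8, 0.64 for Psmb9 and 0.68 for Psmb10. All 9 Pearson relations had an adjusted permutation p under 0.05, and 8 of the 9 Spearman relations did. The relation of Nlrc5 to genes outside the set was not tested. These counts therefore have no share of all genes beside them, and do not show that the relation is particular to class I genes.

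The tumors farthest from the median of Nlrc5 were PS473@NKMOF-101-[Mn] 2 and 3. Without them r was 0.83 for Tap1, 0.73 for Psmb9 and 0.78 for Psmb10, while for H2-K1 and B2m it was 0.49 and 0.50 and the adjusted permutation p was 0.0538 for both, over 16 tumors. As deviations from the group means, r stayed at 0.79 for Tap1 and 0.67 for Tap2 and was 0.37 for B2m, 0.36 for Psmb8, 0.40 for H2-K1 and 0.46 for Psmb9, each of the last 4 with an adjusted permutation p over 0.05. PS473@NKMOF-101-[Mn] 3 had the lowest Nlrc5 of all tumors and a B2m of 1475 FPKM, in the range of PBS.

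**Figure D4:**
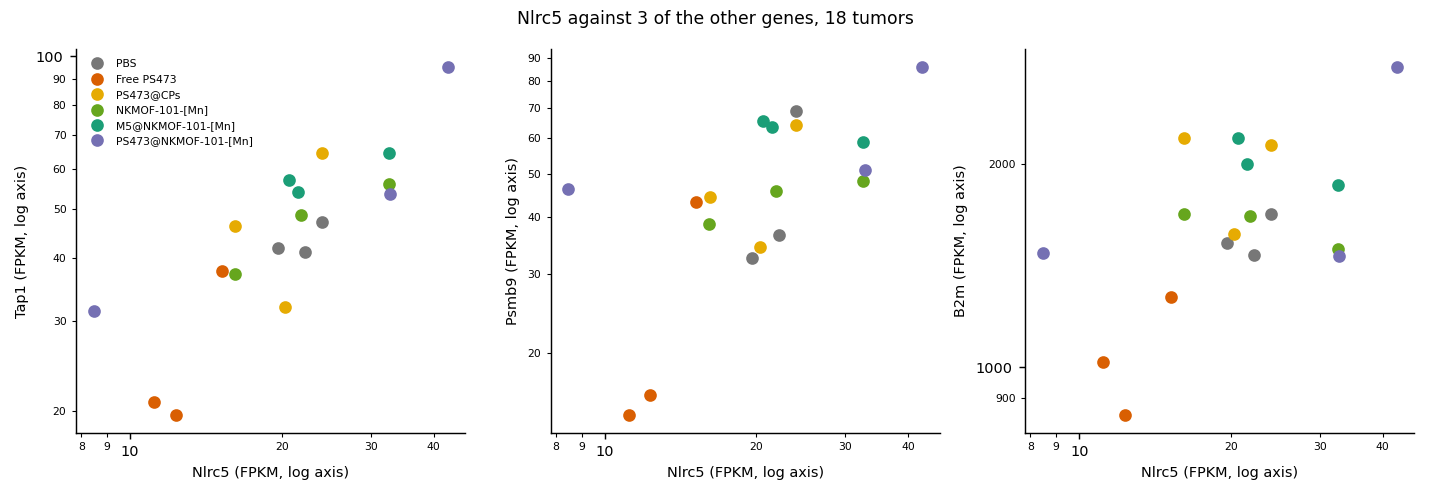
FPKM of Tap1, Psmb9 and B2m against FPKM of Nlrc5 on log axes, 1 point per tumor, coloured by group. PS473@NKMOF-101-[Mn] 2 and 3 lie at the right and left ends of each panel, and r on the log2 scale is 0.84, 0.64 and 0.57.

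Without Nlrc5 the other 9 genes were more closely tied. Over their 36 pairs r ran from 0.74 to 0.98 with a median of 0.89, against 0.57 to 0.84 for the 9 pairs with Nlrc5. Each gene's r with the mean of the other 9 was highest for Tap1 (0.98) and H2-D1 (0.97) and lowest for Nlrc5 (0.70) and H2-K1 (0.86). These r describe 18 tumors that share the same library scaling and carry no test.

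The 10 genes outside the set whose pattern was most like the mean of the set were Gbp3, Igtp, Iigp1, Irf1, Zbp1, Gbp2, H2-T22, Gbp7, Gbp6 and Gbp4, with r from 0.98 for Gbp3 to 0.96 for Gbp4 over 18 tumors and, as deviations from group means, from 0.98 for Gbp3 to 0.93 for Gbp4. The Gbp genes, Igtp and Iigp1 encode interferon-inducible GTPases, Zbp1 a sensor of nucleic acids, and Irf1 an interferon-regulated transcription factor. Their ranges were wide: Iigp1 ran from 3.97 to 95.5 FPKM and Gbp4 from 0.94 to 32.8 FPKM. For comparison, the median r over all 12357 genes was -0.04, and 152 of them had r over 0.8.

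Markers of other cell types varied between the tumors too, and their part in the results above was not tested. The 24 leukocyte markers summed to 52.6 to 466 FPKM in Free PS473 and to 82 to 570 FPKM in PBS, to 76.9 to 129 FPKM in PS473@NKMOF-101-[Mn] and to 94.9 to 153 FPKM in M5@NKMOF-101-[Mn]. In the other groups the sums were 79.1 to 437 FPKM (PS473@CPs) and 154 to 304 FPKM (NKMOF-101-[Mn]). A few genes carry these sums, as Lyz2, S100a8 and S100a9 reached 250, 252 and 209 FPKM while Ptprc reached 6.12 FPKM. The mean log2(FPKM + 1) of the markers weighs them equally. It was 1.16 ± 0.67 (SD, n = 3) in Free PS473, 1.61 ± 0.46 in PBS, 1.28 ± 0.38 in PS473@NKMOF-101-[Mn] and 1.54 ± 0.20 in M5@NKMOF-101-[Mn]. Of the 12 tested, 9 had a higher mean in PS473@NKMOF-101-[Mn] than in Free PS473 and 1 of these, Gzmb, a protease of cytotoxic lymphocytes, had an unadjusted p under 0.05. Ptprc, the pan-leukocyte marker CD45, was 1.08, 0.745 and 3.42 FPKM in Free PS473, 1.73, 2.97 and 3.06 FPKM in PBS and 1.68, 5.94 and 1.33 FPKM in PS473@NKMOF-101-[Mn], so Free PS473 1 and 2 were low, and PS473@NKMOF-101-[Mn] 2 high, for Ptprc as for the class I genes. Its r with the mean of the 10 genes was 0.80, that of the cytotoxic genes Gzmb and Nkg7 was 0.88 and 0.86, and over the 12 tested the median was 0.62. Markers at 0 in some tumors included Cd3d (1 tumor), Klrb1c (1), Ncr1 (1), S100a8 (3) and S100a9 (1).

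The melanocyte markers, which mark the tumor cells, were also higher in PS473@NKMOF-101-[Mn] than in Free PS473, in 10 of 10 genes with a median log2 fold change of 0.29, and 2 of the 10 (Tyrp1, 0.41 ± 0.18, and Trpm1, 0.84 ± 0.38) had an unadjusted p under 0.05. Between framework and other groups 10 of 10 were higher, with a median of 0.21. Their part in the class I differences was not tested.

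Skin epithelium markers differed widely between tumors. Their sums ran from 1.9 FPKM in Free PS473 1 to 5176 FPKM in PS473@CPs 2, with Krt14, a keratin of basal skin cells, at 0 in 5 tumors. The median correlation of the 13 tested with the mean of the 10 class I genes was 0.31. Between PS473@NKMOF-101-[Mn] and Free PS473, 9 of the 10 class I genes had an unadjusted p under 0.05 with the skin level as a covariate, as had 746 of all 12357 genes in that fit, and the median log2 fold change was 0.92. Between framework and other groups 9 of 10 had one, with 785 of all genes.

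**Figure D5:**
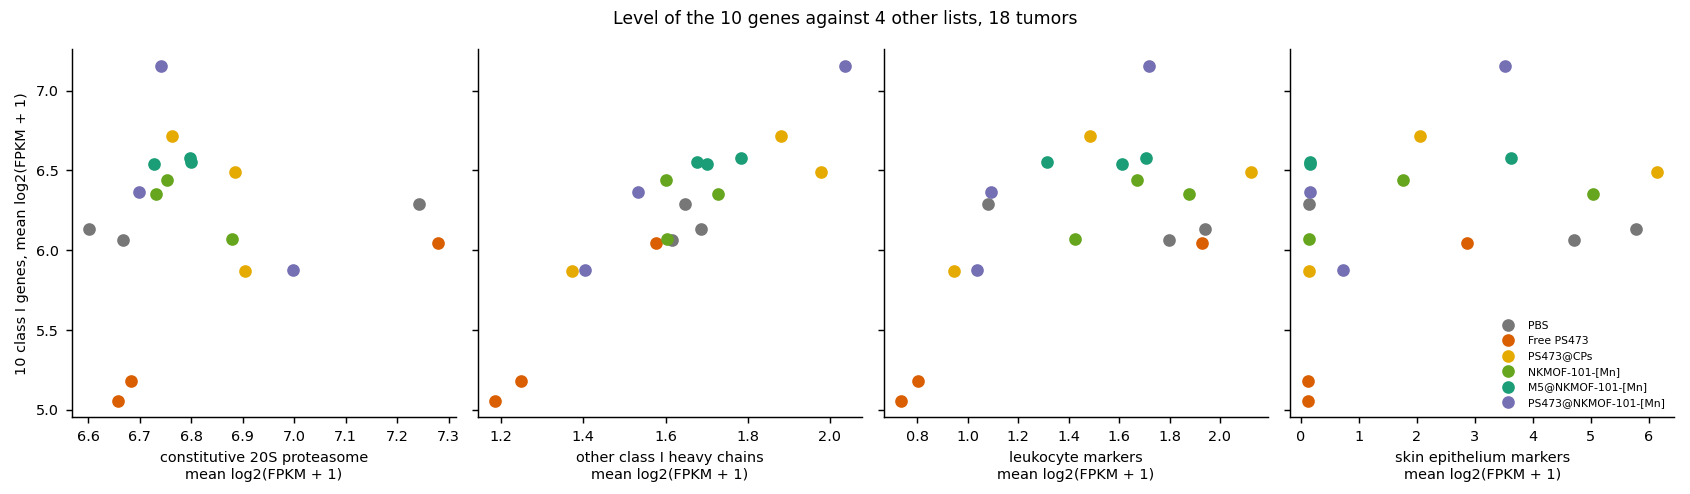
Mean log2(FPKM + 1) of the 10 class I genes in each tumor against the same mean over other lists, coloured by group. The lists are the constitutive 20S subunits (14 genes, 14 tested), other class I heavy chains (15, 7 tested), leukocyte markers (24, 12 tested) and skin epithelium markers (15, 13 tested). Genes that were not tested enter these means. Free PS473 1 and 2 are low for the class I genes, the other heavy chains and the leukocyte markers, and lie within the range of the other tumors for the 20S subunits.

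The tumors matched their label: the melanocyte markers summed to between 5953 and 9174 FPKM, with Pmel at 893 FPKM or more in every tumor. Depth, recovered from the steps between low values, was 17212000 to 28401000 fragments per tumor, and all 10 class I genes were above 8 FPKM in every tumor, so counting error is small beside the spread between tumors. No tumor held the values of another.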

How the data were processed

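Tumors were grouped by their sample records, 3 per group. Poly(A) RNA was sequenced, and the authors deposited FPKM values with 1 gene length per gene; the aligner and counting tool are not given in the sources used here, and the submitters' processing notes name build GRCm39. Values scale to 1000000 per tumor after multiplication by gene length in kilobases. Of the values under 20 fragments, 47.39% to 51.47% were whole fragments (within 0.02), so no count model was used. The members and gene lists were chosen with earlier results of these data known. Here, log2(FPKM + 1) of genes averaging 1 FPKM or more was fitted with limma 3.58.1 (R 4.3.3; 1 mean per group, trend on mean expression), with Benjamini-Hochberg adjustment over 12357 genes at 0.05. On data simulated for PS473@NKMOF-101-[Mn] against PBS, 91.5%, 95% and 98.5% of 200 genes changed by 1.5, 2 and 3 on the log2 scale were recovered among 12357, with 10, 12 and 9 false calls. The 10 class I genes differed by at most 0.59 (Psmb10) in that comparison. Changes of that size were not simulated, so these rates do not tell how often they would be called. Ratios used an exact permutation test and correlations 100000 resamples (Python 3.11.15, numpy 2.4.6, scipy 1.17.1, pandas 2.3.3, matplotlib 3.10.9). Genes named were the 10 members, genes of the lists, and the 10 nearest by correlation. Alternatives were the pseudocount, the filter, quantile and upper-quartile scaling, the tumors fitted, the trend, a replicate block, a skin covariate and leaving out tumors. Where a count from an alternative fit stands without a share of all genes, that share is not given here. RefSeq promoters were on GRCm38.p6 and no other coordinates were used. Strand is not stated, so genes that overlap on opposite strands cannot be told apart. Results for some genes of the lists are not reported here.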

Additional observations from a re-analysis of the deposited data

How the results depend on the processing

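The count of class I genes with an adjusted p under 0.05 in limma was 0 in all 14 comparisons and under all 248 alternatives that were fitted, and it was 0 in each fit that left out 1 tumor. With no filter on low values, 1 to 4 of 31286 genes were called in 11 of the 14 comparisons, and these counts held no class I gene. Replicate numbers are shared between groups, and same-numbered tumors did not deviate together in every pair: over 45 pairs r ran from -0.73 to 0.724 and 18 pairs were over 0.1. Some same-numbered tumors did go together, such as PBS 1 with PS473@CPs 1 (r = 0.66) and PS473@CPs 1 with M5@NKMOF-101-[Mn] 1 (r = 0.55). PBS 1 and NKMOF-101-[Mn] 1 went opposite ways (r = -0.73). Tumors with different numbers also went together, such as PS473@CPs 2 with NKMOF-101-[Mn] 1 (r = 0.72). With a replicate block the count of called class I genes was 0 in every comparison, and the subunit ratios had a permutation p of 0.038 for each after adjustment; at an unadjusted p under 0.05 the block changed the F test from 7 genes to 4 and left the counts against Free PS473 at 9 and 9.
The 50 log2 fold changes followed (10 genes in 5 of the comparisons) reversed in 9 of 900 cases. Of the other comparisons, the median of PS473@NKMOF-101-[Mn] against PBS, PS473@CPs and NKMOF-101-[Mn] turned to -0.08, -0.19 and -0.16 without PS473@NKMOF-101-[Mn] 2. Without the 3 extreme tumors (Free PS473 1 and 2 and PS473@NKMOF-101-[Mn] 2, chosen after seeing the data by the outcome itself), PS473@NKMOF-101-[Mn] against Free PS473 gave -0.21 for H2-K1, -0.0122 for H2-D1, -0.0775 for Tap2 and -0.0213 for Psmb8, Free PS473 against PBS gave 0.0582 for Tapbp, 0.19 for Psmb8 and 0.0564 for Psmb10, and framework against other groups gave -0.0599 for H2-K1. Leaving out 1 tumor moved Nlrc5 in M5@NKMOF-101-[Mn] against PBS between -0.0526 and 0.26.
The subunit ratios lost their call with medians over tumors (0.52, 0.61 and 0.45 for Psmb8/Psmb5, Psmb9/Psmb6 and Psmb10/Psmb7) and without the 3 extreme tumors (0.30, 0.36 and 0.23), and leaving out 1 tumor moved them between 0.61 and 0.90, 0.61 and 0.89, and 0.43 and 0.64. The Nlrc5 correlations lost theirs as deviations from group means for H2-K1 (0.40), B2m (0.37), Psmb8 (0.36) and Psmb9 (0.46), and without the farthest tumors for H2-K1 (0.49) and B2m (0.50). Leaving out 1 tumor moved r between 0.45 and 0.64 for B2m, lost without PS473@NKMOF-101-[Mn] 2, and between 0.48 and 0.68 for Psmb8, lost without that tumor or Free PS473 1. The cause of these losses was not tested.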

Other observations

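Other components of the tumor piece were compared with the level of the 10 class I genes as values, without a test. The 9 tested endothelial and fibroblast markers had a median r of 0.37 with the mean of the 10 genes, from -0.08 to 0.46, and their sums ran from 40.3 FPKM in Free PS473 2 to 679 FPKM in PBS 2. The 10 melanocyte markers had a median r of 0.21, from -0.38 to 0.46, and the 4 tested skeletal muscle markers one of 0.13, from -0.31 to 0.22. None of these lists held a gene with r over 0.8, whereas 5 of the 7 tested heavy chains outside the set did.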
